A study of Arabidopsis thaliana with 4 samples.

Results

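The histone genes of *Arabidopsis thaliana* were examined in wild-type plants and in the *stk* mutant, using 45 loci that encode histones H1, H2A, H2B, H3 and H4. They were chosen by locus identifier, without use of expression values, out of 27206 loci in the files: 3 H1, 13 H2A, 11 H2B, 10 H3 and 8 H4 loci. RNA-Seq had been performed on 2 biological replicates of each genotype, from inflorescences and siliques collected until 5 days after pollination (DAP). All plants were of the Columbia ecotype, and the genotype of the mutant group is given as *stk*-/-, with no other allele or treatment named. The study's methods describe the allele, *stk-2* of the MADS-box gene *SEEDSTICK*, as an insertion by a splice site of an intron. Growth was at 22°C under short or long days, and the labels do not say which libraries came from which. Whole inflorescences and siliques mix many cell types, so that fewer cells of a type and less RNA per cell cannot be told apart.

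Histones package DNA into nucleosomes, in which a core of H2A, H2B, H3 and H4 is wrapped by DNA, while the linker histone H1 binds where the DNA enters and leaves. Replication-dependent histones (H3.1, H4 and the core H2A and H2B forms) are made mostly in S phase and placed behind the replication fork, so their transcripts are abundant in dividing tissue. Replacement variants such as H3.3 and H2A.Z are placed throughout the cell cycle, often at transcribed or regulatory chromatin, and further variants serve heterochromatin (H2A.W), DNA damage signalling (H2A.X), centromeres (CENH3) or particular cell types. Of the 45 loci, 27 were assigned to the replication-dependent group, 6 to the replacement group, 9 to other variants and 3 to the linker histones.

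The files give RPKM, that is reads per kilobase of exon model and of library size, and the gene models of a locus were summed here. Values are given in the order of replicates 1 and 2 of wild type, then replicates 1 and 2 of *stk*. Library sizes recovered from the spacing of the RPKM values ranged from 16965177 reads in wild-type replicate 1 to 33672294 reads in *stk* replicate 2. *STK* itself stood at 38.7 and 40.9 RPKM in wild type, against 7.91 and 7.96 in *stk*, 0.20 times the wild-type mean. All 6 floral genes of a tissue check (*AG*, *AP3*, *PI*, *SEP3*, *SHP1* and *SHP2*) were expressed in every library. Column headers place *stk* replicate 1 in lane 7 of the sequencer and the other libraries in lane 1, so values without *stk* replicate 1 are also values within 1 lane. *stk* replicate 1 further stood apart in its dependence on exon length. Loci with 400 to 500 bases of exon lay a median of 1.07 above their own mean over the libraries there, on the log2(RPKM + 1) scale, those with 700 to 800 bases 0.30 above it, and those with 1500 to 2500 bases -0.01 from it. In *stk* replicate 2 the same bins had medians of -0.02, -0.14 and -0.08. Wild-type replicate 1 leaned the other way, at -0.67, -0.03 and 0.11, and wild-type replicate 2 had -0.30, -0.14 and -0.03. Values without *stk* replicate 1 thus still depend on exon length. All loci tested with exons under 600 bases then had a median log2 fold change of 0.34, against -0.11 for all loci tested. Histone genes are short, with a median exon length of 704 bases for the members tested, against 1509 bases for all loci tested. The main results are therefore given as deposited, after removal of each library's trend with exon length (called length-corrected below), and without *stk* replicate 1.

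**Figure D1:**
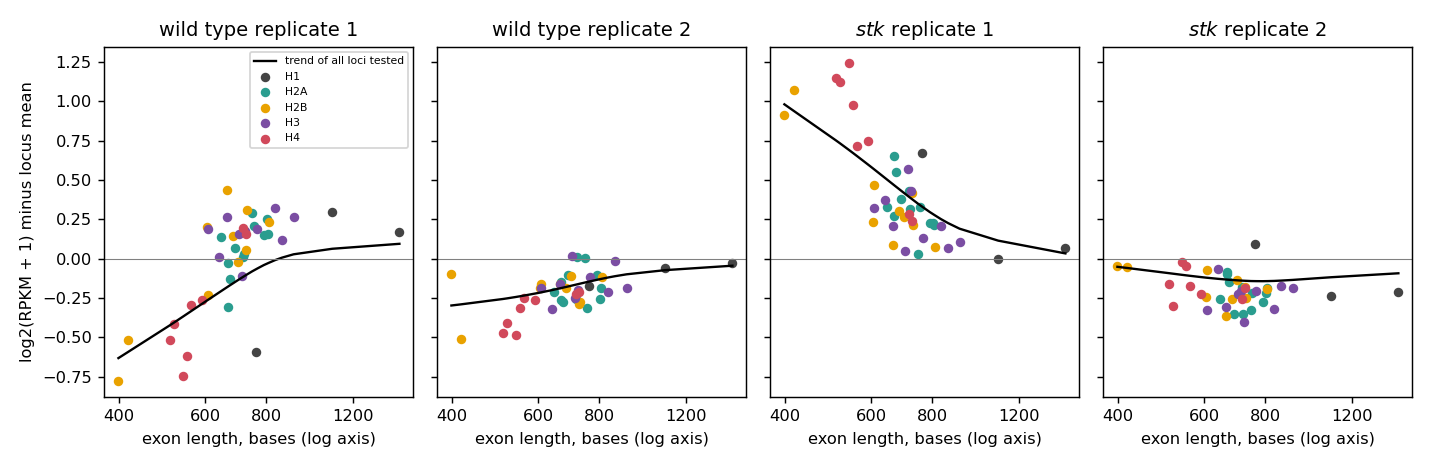
Deviation of each histone locus tested from its own mean over the 4 libraries (y axis, log2(RPKM + 1)) against exon length in bases (x axis, log scale), 1 panel for each library; points are loci coloured by histone class, and the line is the trend of all loci tested. In *stk* replicate 1 every one of the 8 members under 600 bases lies more than 0.5 above its mean, and the trend line is high there too.

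As a group, the histone genes were abundant, and none was called different between the genotypes at the adjusted threshold. Of the 45 loci, 43 passed the filter of a mean of at least 1 RPKM, and their median level was 61.8 RPKM, against 11.6 RPKM for all 19044 loci tested. Limma called 0 of the 43 at an adjusted p (Benjamini-Hochberg over all loci) under 0.05, and 0% of all loci tested. *STK* itself, at 0.20 times the wild-type mean, did not pass either (adjusted p = 0.088 by limma), so a count of 0 does not show equal levels. At an unadjusted p of at most 0.05 it gave 4 members higher in *stk*, where 5.66% of all loci were called, and 0 members lower, where 3.53% were called. Baggerley's test gave 0 members at either threshold, where 0.163% of all loci passed the unadjusted one and 0% the adjusted one. The thresholds of the study are a 2-fold ratio of mean RPKM together with an unadjusted p of at most 0.05. With limma's p they were met by 3 members higher in *stk* (3.1% of all loci) and by 0 lower (0.326% of all loci). With Baggerley's test, which the study used, they were met by 0 members. So few loci passed the version of that test written here that its counts of 0 tell little about histone genes. The study listed more genes by its own run of it. The median log2 fold change of the members was 0.05, against -0.05 for all loci tested. With 2 libraries against 2, an exact permutation test of a single value cannot go below p = 0.333, so none is given.

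The counts turned on which libraries entered. Without *stk* replicate 2, limma called 12 members at an adjusted p under 0.05, where 8.27% of all loci were called, and 16 at an unadjusted p of at most 0.05, every one of them higher in *stk*, as were 12.3% of all loci. Without *stk* replicate 1 it called 0 at the adjusted threshold, and 1 higher and 2 lower at the unadjusted one, where 4.19% and 4.83% of all loci were called. Without wild-type replicate 1 the unadjusted count of higher members was 0 (2.26% of all loci), and without wild-type replicate 2 it was 1 (3.43% of all loci), with none lower in either. After length correction the members tilted the other way, with 3 higher and 7 lower at an unadjusted p of at most 0.05, where 6.98% and 6.3% of all loci were called, and again with 0 at the adjusted threshold by limma. The median log2 fold change of the members was then -0.16, against -0.01 for all loci, and it was -0.22 without *stk* replicate 1, against -0.11.

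Every one of the 43 members tested was higher in *stk* replicate 1 than in *stk* replicate 2, by 1.18 to 2.75 times, while 73.9% of all loci tested were. Those loci are longer, with a median of 1509 bases of exon against 704 for the members. In wild type, replicate 1 was above replicate 2 at 33 of the 43 members and at 67.6% of all loci. Both *stk* libraries exceeded both wild-type libraries at 11 members (16.3% of all loci), and both lay below them at 0 of the 43 (26.8% of all loci). Of those 11, 8 have exons under 600 bases and are every such member. Among all loci tested with exons under 600 bases, 62.3% had both *stk* libraries on top. Across the 43 members the log2 fold change went down as exon length went up, with Pearson's r = -0.70 to log10 of the length and Spearman's rho = -0.68, values that describe loci sharing the same 4 libraries. After length correction r was -0.29, and without *stk* replicate 1 it was -0.60. The plot of fold changes by locus shows how far each member moved between these settings.

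**Figure D2:**
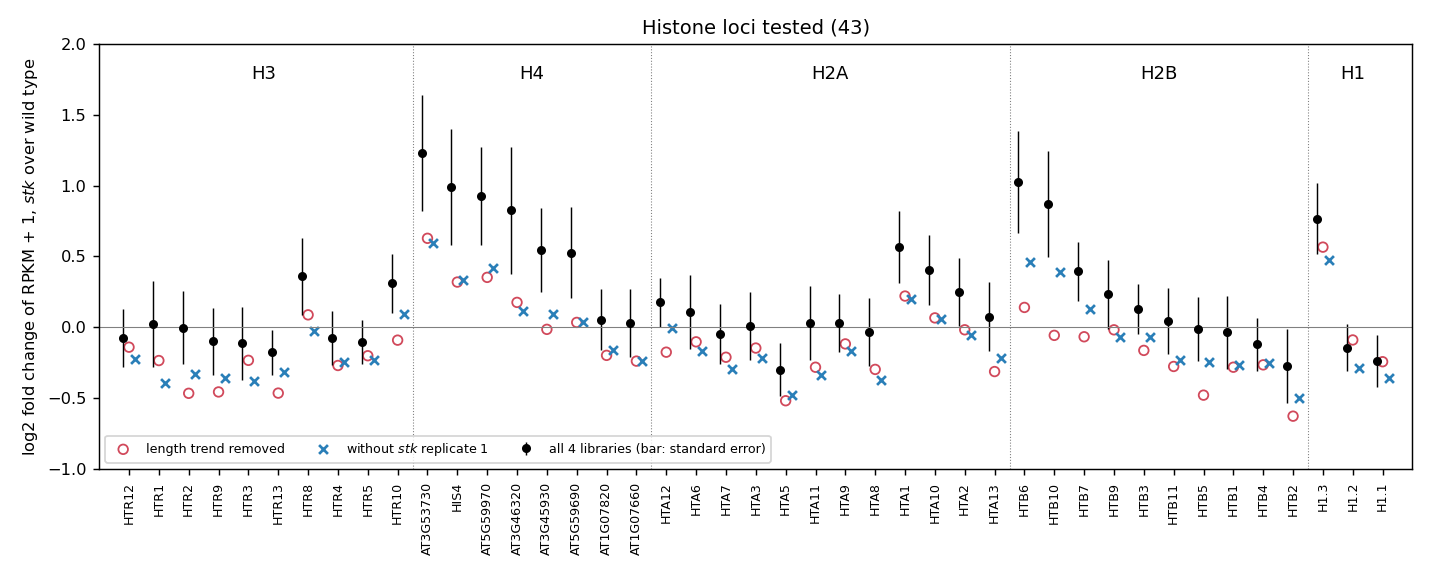
Log2 fold change (RPKM + 1, *stk* over wild type, y axis) of the 43 histone loci tested, grouped by class, with all 4 libraries (black, bars are standard errors of limma), length-corrected (open circles) and without *stk* replicate 1 (crosses). H4 loci have the highest values with all libraries, up to 1.23 for AT3G53730, and most members sit below 0 in the other settings.

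Histone H3 was the most abundant class, and 3 loci for the replacement form H3.3 gave most of it. The 5 H3.1 loci encode 1 identical protein, as do the 3 H3.3 loci, and the forms differ at codons 32, 42, 88 and 91, counting the start codon as 1. Those codons are the sites by which the forms of H3 are told apart, and they are shown in capitals in the coding sequence of H3.1 and H3.3 loci (RefSeq, TAIR10.1, read 5′ to 3′ on the coding strand), first over codons 29 to 45.
HTR2, H3.1 (chr1:2971998-2972048, minus strand): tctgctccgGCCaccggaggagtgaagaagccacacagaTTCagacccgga
HTR1, H3.1 (chr5:26120375-26120425, minus strand): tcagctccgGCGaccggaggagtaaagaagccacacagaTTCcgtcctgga
HTR4, H3.3 (chr4:18556201-18556251, minus strand): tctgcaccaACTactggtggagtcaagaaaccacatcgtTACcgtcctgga
HTR5, H3.3 (chr4:18558015-18558065, minus strand): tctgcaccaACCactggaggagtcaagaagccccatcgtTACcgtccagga

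The same loci over codons 85 to 94 hold the second pair of differing codons, in the part of the protein that histone chaperones contact.
HTR2, H3.1 (chr1:2971851-2971880, minus strand): ttccagagcAGTgccgtcGCCgctcttcag
HTR1, H3.1 (chr5:26120228-26120257, minus strand): ttccagagcAGCgccgtcGCAgcacttcag
HTR4, H3.3 (chr4:18555969-18555998, minus strand): ttccagagcCATgctgtcTTAgctctccag
HTR5, H3.3 (chr4:18557668-18557697, minus strand): ttccagagcCATgctgtgCTTgcactccag
The remaining codons shown differ in synonymous bases within and between the forms. At most 12.4% of the 50-base stretches of any H3 locus, in *HTR9*, fitted elsewhere with up to 2 mismatches, and the reads were 50 bp long.

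The H3.3 loci *HTR4* and *HTR5* are neighbours on chromosome 4 (18555577 to 18556972 and 18557187 to 18558743). *HTR5* had 475 and 431 RPKM in wild type, against 458 and 386 in *stk*. *HTR4* had 436 and 352 RPKM in wild type, against 419 and 330 in *stk*. The genotypes overlapped at both, with log2 fold changes of -0.10 (standard error 0.16, adjusted p = 0.847 by limma) for *HTR5* and -0.07 (0.19, adjusted p = 0.918) for *HTR4*. *HTR8*, the third H3.3 locus, had 147 and 133 RPKM in wild type, against 236 and 137 in *stk*. Only *stk* replicate 1 stood out there, and the log2 fold change of 0.36 went to 0.09 after length correction and to -0.03 without that library.

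The replication-dependent H3.1 loci summed to less than the H3.3 loci in every library. *HTR2* had 150 and 116 RPKM in wild type, against 165 and 105 in *stk*. *HTR1* had 145 and 112 RPKM in wild type, against 173 and 96.9 in *stk*. At both, replicate 1 of each genotype was above replicate 2, and the genotypes overlapped. *HTR9* and *HTR13*, neighbours on chromosome 5, and *HTR3* had lower levels, from 21.2 to 101 RPKM over the libraries. The log2 fold changes of the 5 loci ran from -0.18 to 0.02 as deposited. After length correction they ran from -0.47 to -0.23, with *HTR13* (-0.46, unadjusted p = 0.014), *HTR2* (-0.47, unadjusted p = 0.031) and *HTR9* (-0.46, unadjusted p = 0.034) lower by limma before adjustment and an adjusted p of 0.283 to 0.339. Without *stk* replicate 1 they ran from -0.39 to -0.31, with no unadjusted p under 0.05.

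Both specialised H3 genes were weakly expressed. *HTR12*, which encodes the centromeric histone CENH3, had 8.77 and 6.16 RPKM in wild type, against 7.77 and 6.16 in *stk*. *HTR10*, a male gamete H3, had 2.39 and 1.71 RPKM in wild type, against 3.37 and 2.23 in *stk*. The genotypes overlapped at both. Of 5 sperm-cell genes only *GEX2* passed the filter, and the others (*DUO1*, *HAP2*, *DAZ1* and *DAZ2*) ranged from 0.17 to 0.92 RPKM.

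H4 was the class whose summed level differed most between the genotypes as deposited, and *stk* replicate 1 carried most of that difference. The 8 loci encode 1 identical protein from coding sequences that are 78.8% to 98.1% identical, and they summed to 425 and 398 RPKM in wild type, against 847 and 437 in *stk*. Both *stk* libraries were above both wild-type libraries, but *stk* replicate 2 only by 1.06 times the wild-type mean. The log2 ratio of the group means was 0.64, which became 0.09 without *stk* replicate 1, 1.04 without *stk* replicate 2 and 0.10 after length correction. This followed the length of the transcripts: 6 H4 loci have exons of 508 to 592 bases and 2 have 717 and 726 bases, a grouping made after the values were seen. The short ones had a median log2 fold change of 0.88 and both *stk* libraries on top at 6 of 6, whereas AT1G07660 and AT1G07820, the long ones, had 0.03 and 0.05 with overlapping genotypes.

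AT3G53730 had the largest fold change of any histone locus. It lies on chromosome 3 (19912494 to 19913033) and had 39.1 and 46.9 RPKM in wild type, against 158 and 65.3 in *stk*, from an estimated 358, 534, 2613 and 1187 reads. The *stk* libraries were both above wild type, with *stk* replicate 1 at 2.43 times *stk* replicate 2. The log2 fold change was 1.23 (standard error 0.41, unadjusted p = 0.026, adjusted p = 0.514 by limma). It was 0.63 (0.18, unadjusted p = 0.014, adjusted p = 0.283 by limma) after length correction. Without *stk* replicate 1 it was 0.60, and with both changes it was 0.39. The locus has 540 bases of exon, and all loci tested under 600 bases had a median of 0.34 without *stk* replicate 1. None of its 50-base stretches fitted elsewhere in the genome with up to 2 mismatches.

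**Figure D3:**
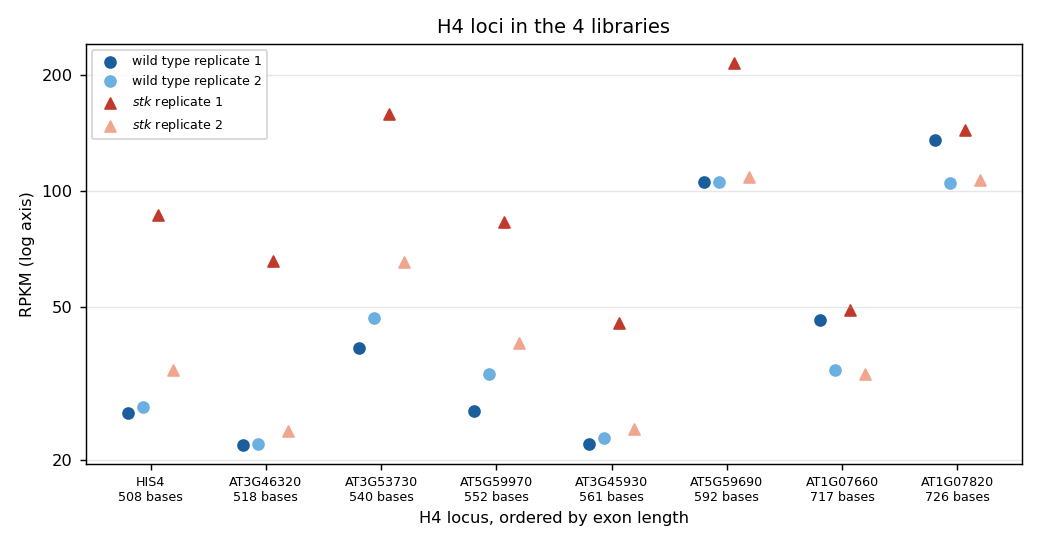
RPKM (y axis, log scale) of the 8 H4 loci in each of the 4 libraries (circles wild type, triangles *stk*), ordered along the x axis by exon length. *stk* replicate 1 stands far above the other libraries at the 6 loci with exons of up to 592 bases and close to them at the 2 loci of 717 and 726 bases, and at AT3G53730 *stk* replicate 2 (65.3 RPKM) also lies above both wild-type libraries.

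*HIS4*, the other H4 gene with no shared stretches, had 26.6 and 27.5 RPKM in wild type, against 86.5 and 34.4 in *stk*, and its log2 fold change was 0.99 (standard error 0.41, unadjusted p = 0.056 by limma), 0.32 after length correction and 0.34 without *stk* replicate 1. AT5G59970 had 26.9 and 33.5 RPKM in wild type, against 83.3 and 40.4 in *stk*, a log2 fold change of 0.93 (0.35, unadjusted p = 0.039, adjusted p = 0.519 by limma) that was 0.35 (unadjusted p = 0.044) after length correction and 0.42 (unadjusted p = 0.084) without *stk* replicate 1. Both genes had *stk* replicate 1 far on top and *stk* replicate 2 slightly above wild type. The most abundant H4 loci were AT5G59690 and AT1G07820. AT5G59690 had 106 and 106 RPKM in wild type, against 215 and 109 in *stk*. AT1G07820 had 136 and 105 RPKM in wild type, against 144 and 107 in *stk*. *stk* replicate 1 was again far on top at the shorter AT5G59690, and the genotypes overlapped at the longer AT1G07820. From 47.5% to 69.7% of the 50-base stretches of the 6 H4 loci other than *HIS4* and AT3G53730 fitted another place, in pairs on the same chromosome such as AT3G45930 and AT3G46320, so that the split of reads within such pairs is uncertain while their sum is less so.

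The H2A class has the most variants, and each of its variant groups summed to less than the core H2A loci in every library. The 4 core H2A loci summed to 247 and 214 RPKM in wild type, against 360 and 227 in *stk*, where *stk* replicate 2 lay between the wild-type libraries. *HTA10*, the highest of them, had 89.7 and 81.1 RPKM in wild type, against 145 and 88.8 in *stk*. The core loci had log2 fold changes of 0.08 to 0.57, highest for *HTA1*, with 28.6 and 29.6 RPKM in wild type, against 56.6 and 33.6 in *stk*. *HTA1*, also known as *RAT5*, was the 1 H2A locus with both *stk* libraries above both wild-type ones (unadjusted p = 0.071 by limma). The log2 fold change of 0.57 was 0.22 after length correction and 0.20 without *stk* replicate 1.

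H2A.Z, the variant placed by the SWR1 complex around transcription start sites, is encoded by 3 of the members. *HTA9* had 142 and 113 RPKM in wild type, against 148 and 112 in *stk*. *HTA11* had 46.9 and 41.5 RPKM in wild type, against 58.4 and 34.7 in *stk*. *HTA8* had 13.2 and 12.98 RPKM in wild type, against 16.3 and 9.88 in *stk*. The *stk* libraries of *HTA11* and *HTA8* lay on either side of wild type. Log2 fold changes of the 3 were -0.03 to 0.03 as deposited and -0.30 to -0.12 after length correction, where *HTA8* had an unadjusted p of 0.033 and an adjusted p of 0.337 by limma.

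H2A.W, which marks heterochromatin, showed the same overlap of genotypes. *HTA6* had 123 and 85.6 RPKM in wild type, against 135 and 91.7 in *stk*. *HTA7* had 60.3 and 50.3 RPKM in wild type, against 63.5 and 44.7 in *stk*. *HTA12* had 21.7 and 19.8 RPKM in wild type, against 26.9 and 20.6 in *stk*. In each of the 3 genes, *stk* replicate 1 was the highest library and *stk* replicate 2 was within or below the wild-type range.

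H2A.X, the form phosphorylated near DNA breaks, included the member with the lowest fold change as deposited among the 43 tested. *HTA5* had 93.3 and 76.4 RPKM in wild type, against 77.6 and 60.4 in *stk*, where *stk* replicate 2 was the lowest library and *stk* replicate 1 lay just above wild-type replicate 2. The log2 fold change was -0.30 (standard error 0.19, unadjusted p = 0.168 by limma), -0.52 (0.12, unadjusted p = 0.007, adjusted p = 0.244) after length correction and -0.48 (0.24, unadjusted p = 0.047, adjusted p = 0.538) without *stk* replicate 1. *HTA3*, the other H2A.X locus, had 39.4 and 27.4 RPKM in wild type, against 38.7 and 28.2 in *stk*, with *stk* inside the wild-type range. *HTA4*, an H2A locus of no assigned variant, had 0, 0.06, 0.17 and 0.04 RPKM, which is at most an estimated 4 reads in a library, so no comparison was made.

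H2B loci differed more from each other than between genotypes. The 10 core H2B loci ranged in mean level from 2.64 RPKM for *HTB7* to 322 RPKM for *HTB4*, and they summed to 1173 and 869 RPKM in wild type, against 1129 and 830 in *stk*. *HTB4* had 376 and 295 RPKM in wild type, against 336 and 279 in *stk*. *HTB9* had 138 and 109 RPKM in wild type, against 177 and 117 in *stk*. *HTB2* had 332 and 218 RPKM in wild type, against 261 and 190 in *stk*, and its log2 fold change was -0.27 (standard error 0.26, unadjusted p = 0.336 by limma). The genotypes overlapped at all 3 of these abundant loci, and 28.6% of the 50-base stretches of *HTB9* also fitted another place, chiefly *HTB11*. *HTB2* was also lower after length correction (-0.63, unadjusted p = 0.028, adjusted p = 0.325 by limma) and without *stk* replicate 1 (-0.50, unadjusted p = 0.043, adjusted p = 0.519), and its wild-type libraries themselves differed by more than the group means did. *HTB5*, with 51.5 to 71.9 RPKM, was lower after length correction only (-0.48, unadjusted p = 0.040, adjusted p = 0.348).

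The H2B loci with the highest fold changes were the shortest and were weakly expressed. *HTB6* (chromosome 3, 417 bases of exon) had 4.52 and 4.55 RPKM in wild type, against 15.6 and 6.62 in *stk*, a log2 fold change of 1.02 (standard error 0.36, unadjusted p = 0.032, adjusted p = 0.514 by limma). It was 0.14 (unadjusted p = 0.345) after length correction and 0.46 (unadjusted p = 0.053) without *stk* replicate 1. *HTB10* (399 bases of exon) had 1.03 and 2.26 RPKM in wild type, against 5.58 and 2.38 in *stk*, from an estimated 7, 19, 68 and 32 reads. Loci of this length had median log2 fold changes of 0.94 (under 400 bases) and 0.98 (400 to 500 bases) in the whole data set. *HTB8*, which encodes the seed variant H2B.S of condensed chromatin, had 0.72 and 0.84 RPKM in wild type, against 0.49 and 0.41 in *stk*, from an estimated 9 to 13 reads in each library. It was the 1 member with both *stk* libraries below both wild-type libraries, and it did not pass the filter. Without a filter its log2 fold change was -0.30 (standard error 0.11, unadjusted p = 0.047, adjusted p = 0.584 by limma).

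Among the linker histones, the rare form H1.3 had a fold change of the opposite sign to the main forms. *H1.1* had 216 and 168 RPKM in wild type, against 174 and 148 in *stk*. *H1.2* had 136 and 118 RPKM in wild type, against 126 and 103 in *stk*. The genotypes overlapped at both, with log2 fold changes of -0.24 (standard error 0.18, adjusted p = 0.715 by limma) and -0.14 (0.17, adjusted p = 0.799). *H1.3*, a drought-inducible linker histone (chromosome 2, 7845923 to 7846884), had 3.32 and 4.79 RPKM in wild type, against 9.39 and 5.96 in *stk*, from an estimated 43, 77, 219 and 153 reads. The *stk* libraries were both above wild type. The log2 fold change was 0.77 (standard error 0.25, unadjusted p = 0.025, adjusted p = 0.514 by limma), 0.57 (0.18, unadjusted p = 0.024, adjusted p = 0.310) after length correction and 0.48 (0.24, unadjusted p = 0.050, adjusted p = 0.556) without *stk* replicate 1. It has 763 bases of exon, and none of its 50-base stretches fitted elsewhere. H1.3 made up 1.26% of the summed H1 level in wild type and 2.70% in *stk*.

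As deposited, the ratio of replication-dependent to replacement histones overlapped between the genotypes. The replication-dependent loci summed to 2332 and 1858 RPKM in wild type, against 2857 and 1829 in *stk*, and the replacement loci to 1260 and 1084 RPKM in wild type, against 1336 and 1011 in *stk*. Their ratio was 1.85 and 1.71 in wild type, against 2.14 and 1.81 in *stk*, so that *stk* replicate 2 lay between the wild-type libraries. The mean log2 ratio differed by 0.14 between the genotypes, by 0.02 without *stk* replicate 1 and by -0.03 after length correction. The ratio of H3.1 to H3.3 was 0.46 and 0.41 in wild type, against 0.47 and 0.39 in *stk*, a log2 difference of -0.03. After length correction it was 0.50 and 0.43 in wild type, against 0.42 and 0.39 in *stk*, with no overlap and a log2 difference of -0.20. For H2A.X over core H2A the ratio was 0.54 and 0.49 in wild type, against 0.32 and 0.39 in *stk*, with no overlap, and after length correction it was 0.50 and 0.47 against 0.35 and 0.39, again with no overlap. The same held for the other H2A variants, with H2A.Z over core H2A at 0.82 and 0.78 in wild type, against 0.62 and 0.69 in *stk*, and H2A.W over core H2A at 0.83 and 0.73 in wild type, against 0.62 and 0.69 in *stk*, and both without overlap after length correction too. A lack of overlap was not particular to these ratios. It also held for H2A over H4 (1.86 and 1.61 in wild type, against 1.09 and 1.44 in *stk*), H2B over H2A, H3 over H4 and H1 over H4. Those ratios did not overlap after length correction either. With 2 libraries against 2, a lack of overlap cannot go below p = 0.333 in an exact permutation test. No test was made on these sums, which are scores over chosen loci.

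**Figure D4:**
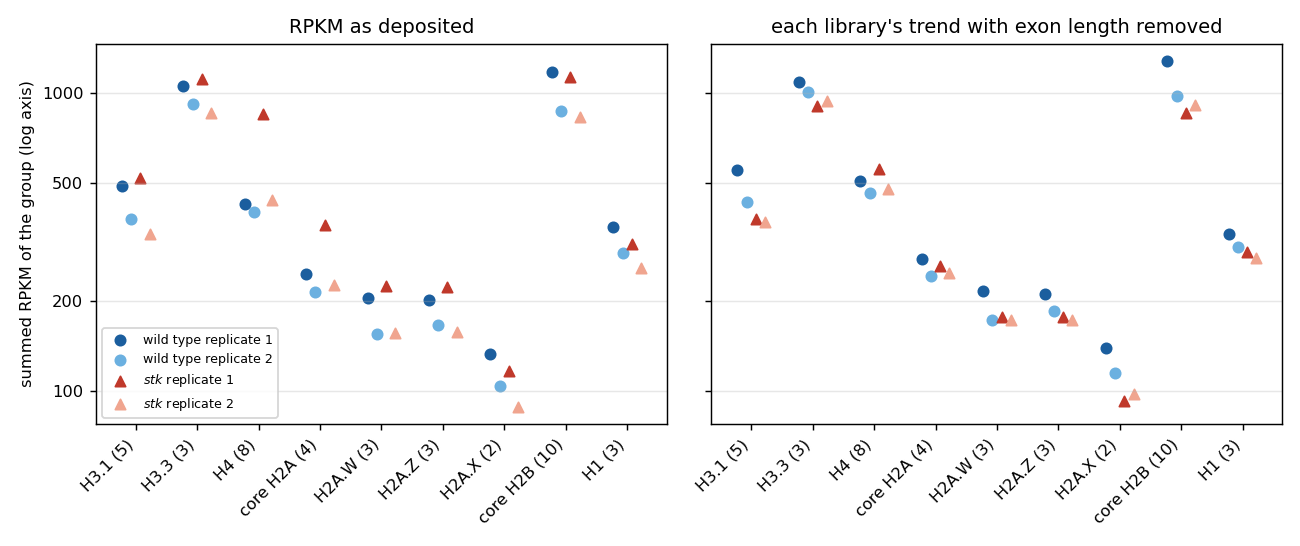
Summed RPKM (y axis, log scale) of histone groups in the 4 libraries (circles wild type, triangles *stk*; number of loci in brackets), as deposited on the left and length-corrected on the right. *stk* replicate 1 stands clear of the other libraries for H4 and core H2A on the left, and on the right both *stk* libraries lie below both wild-type libraries for H3.1, H3.3, H2A.Z, H2A.X, core H2B and H1. The share of all loci that did so after length correction was not counted.

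After length correction the summed levels of several groups lay lower in *stk* in both libraries, while H4, core H2A and H2A.W overlapped between the genotypes. The share of all loci lower in both *stk* libraries was not counted on length-corrected values, so these sums have no comparator. As deposited that share was 26.8%. H3.1 then summed to 549 and 429 in wild type, against 379 and 367 in *stk*, H2A.X to 139 and 115 in wild type, against 92.3 and 97.9 in *stk*, and core H2B to 1277 and 974 in wild type, against 855 and 913 in *stk*, all in length-corrected RPKM. The log2 ratios of group means were -0.39, -0.42 and -0.35. The correction assumes that loci of equal length share 1 trend in a library, and it moved the levels of *stk* replicate 1 the most.

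The promoters of the members share motifs with a known link to histone genes. The octamer CGCGGATC, a plant histone promoter element, was searched on both strands within 250 bases upstream of the annotated start (RefSeq, TAIR10.1). It occurred at 10 of the 45 members, against 0.135% of 27443 protein-coding genes. The holders were 2 H4 loci, the H3.1 genes *HTR1*, *HTR2* and *HTR9*, the H3.3 gene *HTR5*, the H2A genes *HTA6*, *HTA10* and *HTA13*, and *H1.1*. Windows of some of these promoters are shown, with the octamer or its reverse complement in capitals. *HTR2* and *HTA10* hold it in a pair of copies. *HTR5*, *H1.1* and *HTA6*, whose window is not shown, carry it without being in the replication-dependent group.
H4 AT5G59690 (chr5:24051373-24051440, plus strand): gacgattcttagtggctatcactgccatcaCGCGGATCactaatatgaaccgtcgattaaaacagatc
HTR2 (chr1:2972335-2972454, minus strand): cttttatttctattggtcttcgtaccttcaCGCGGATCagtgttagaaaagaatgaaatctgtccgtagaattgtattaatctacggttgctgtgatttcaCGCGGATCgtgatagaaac
HTR1 (chr5:26120670-26120737, minus strand): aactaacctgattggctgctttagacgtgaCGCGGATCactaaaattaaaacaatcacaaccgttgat
HTA10 (chr1:18926707-18926810, plus strand): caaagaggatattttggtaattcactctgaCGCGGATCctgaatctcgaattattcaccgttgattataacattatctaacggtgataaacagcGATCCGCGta
HTR5 (chr4:18558946-18558992, minus strand): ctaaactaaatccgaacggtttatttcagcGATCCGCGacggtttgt
H1.1 (chr1:2077768-2077825, minus strand): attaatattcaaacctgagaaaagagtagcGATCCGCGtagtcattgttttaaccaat
The 10 loci with an octamer had a median log2 fold change of 0.03, and the 33 other members tested had 0.05. After length correction the medians were -0.24 and -0.14.

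The hexamer ACGTCA, likewise known from histone promoters, occurred at 8 of the 10 core H2B loci and at 4 of the 10 H3 loci. It was found at 0 H4, 0 H2A and 0 H1 loci and at 7.69% of all protein-coding genes. The E2F element TTTCCCGC was found at 0 of the 45 members and at 0.619% of all genes. A match of letters is a description only.

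The 20 histone chaperones and exchange factors had a median log2 fold change of -0.20, against -0.05 for all loci tested. The median was -0.12 after length correction, against -0.01, and -0.24 without *stk* replicate 1, against -0.11. As deposited, 2 of the 20 were lower at an unadjusted p of at most 0.05 by limma (3.53% of all loci) and 0 were higher. At 11 of them both *stk* libraries lay below both wild-type libraries (26.8% of all loci). *FAS1*, the large subunit of the CAF-1 complex that places H3.1 and H4 behind the fork, had 5.88 and 6.51 RPKM in wild type, against 4.06 and 4.46 in *stk* (log2 fold change -0.45, standard error 0.14, unadjusted p = 0.019, adjusted p = 0.514 by limma). *NAP1;3*, a nucleosome assembly protein that binds H2A and H2B, had 23.1 and 21.98 RPKM in wild type, against 16.8 and 16.1 in *stk* (-0.43, 0.13, unadjusted p = 0.020, adjusted p = 0.514). The genotypes were apart at both genes, which are long (2767 and 1656 bases of exon), and the unadjusted p was 0.037 and 0.012 by limma after length correction, but 0.095 and 0.056 without *stk* replicate 1. In the latter fit *ASF1B* (-0.49, unadjusted p = 0.047, adjusted p = 0.533) and *NASP* (-0.51, unadjusted p = 0.033, adjusted p = 0.459) were the 2 lower by limma.

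Of 15 DNA replication genes, 6 were lower (3.53% of all loci) and 0 higher at an unadjusted p of at most 0.05, and 13 had both *stk* libraries below both wild-type libraries (26.8% of all loci). After length correction 4 were lower (6.3% of all loci), and without *stk* replicate 1 3 were (4.83% of all loci), with 0 higher in either fit. The helicase gene *MCM2* had 17.3 and 14.95 RPKM in wild type, against 11.1 and 10.6 in *stk* (log2 fold change -0.53). *MCM3*, for another subunit of that helicase, had 18.6 and 16.7 RPKM in wild type, against 12.4 and 11.7 in *stk* (-0.52). The genotypes were well apart at both. *MCM6* (-0.44), *MCM7* (-0.36), *RNR1* (-0.43), for a subunit of ribonucleotide reductase, and *ICU2* (-0.39), for the catalytic subunit of DNA polymerase alpha, were the others. None passed at an adjusted p, which was 0.502 to 0.540 for these 6 by limma. Of 10 mitotic genes, 1 was lower (3.53% of all loci), the B-type cyclin-dependent kinase gene *CDKB1;1* (12.8 and 9.54 RPKM in wild type, against 7.31 and 8.16 in *stk*; -0.47, unadjusted p = 0.043, adjusted p = 0.528), and 8 had both *stk* libraries below both wild-type libraries (26.8% of all loci). After length correction 5 of the mitotic genes were lower (6.3% of all loci), and without *stk* replicate 1 it was 1, *KNOLLE* (4.83% of all loci). The median log2 fold changes were -0.31 for replication and -0.34 for mitotic genes, against 0.13 for the 27 replication-dependent histone loci. After length correction these medians were -0.22, -0.30 and -0.16, against -0.01 for all loci.

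**Figure D5:**
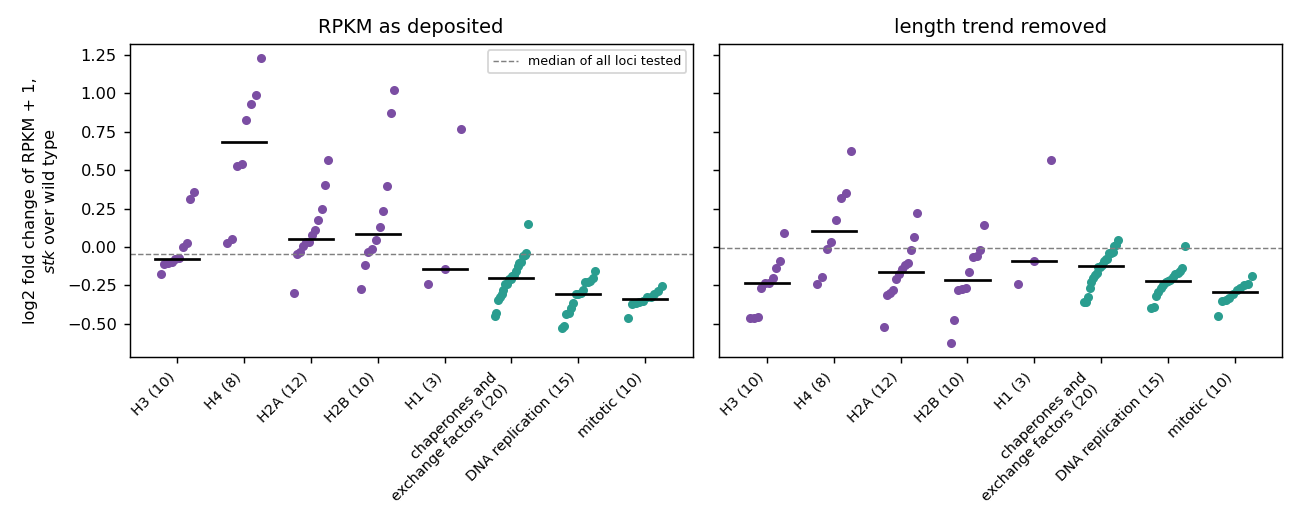
Log2 fold change (RPKM + 1, *stk* over wild type, y axis) of histone loci by class (purple) and of 3 gene lists (green), with the median of each group (black bar), the number of loci tested in brackets and the median of all loci tested (dashed), as deposited on the left and length-corrected on the right. The median of H4 is 0.68 on the left and 0.11 on the right, and replication and mitotic genes lie below 0 on both sides except for *TSK*, a replication gene, at 0.00 on the right.

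Outside the 45 loci, 4 further H3 genes were followed. *HTR14* had 1.44 and 1.61 RPKM in wild type, against 4.19 and 3.3 in *stk*, with both *stk* libraries well above wild type, and the log2 fold change was 0.90 (standard error 0.16, unadjusted p = 0.001, adjusted p = 0.334 by limma). With 531 bases of exon it is short, and after length correction the value was 0.28 (unadjusted p = 0.190 by limma). Without *stk* replicate 1 it was 0.77 (unadjusted p = 0.0017, adjusted p = 0.080), and with both changes 0.55 (unadjusted p = 0.014). *HTR11* ranged from 5.41 to 7.98 RPKM with overlapping genotypes, *HTR6* did not pass the filter, and *HTR15* is listed at 0 in both wild-type libraries and at 0.33 and 0.15 RPKM in *stk*.

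Markers of cells that could differ in number between the samples were read beside these values. Genes of the pollen vegetative cell were abundant, with *VGD1* at 281 and 251 RPKM in wild type, against 248 and 214 in *stk*, and 3 of the 4 had both *stk* libraries below both wild-type libraries (26.8% of all loci). None of the 4 had an unadjusted p of at most 0.05 as deposited by limma, and *AGP6* did after length correction (-0.35, unadjusted p = 0.024, adjusted p = 0.308). The 4 genes of embryo and seed maturation (*LEC1*, *LEC2*, *FUS3* and *ABI3*) reached at most 1.48 RPKM and none passed the filter. *SEP3* was the floral gene at an unadjusted p of at most 0.05 as deposited, at 140 and 126 RPKM in wild type, against 274 and 193 in *stk* (unadjusted p = 0.009, adjusted p = 0.493 by limma). *SHP2* also had both *stk* libraries above wild type, and *PI* had both below it, with a log2 fold change of -0.31 that was -0.56 (unadjusted p = 0.019, adjusted p = 0.346 by limma) without *stk* replicate 1. The part of organ or cell composition in the histone values was not tested.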

How the data were processed

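Total RNA of inflorescences and siliques until 5 DAP was sequenced as single reads of 50 bp by the authors, who mapped reads to TAIR10 with CLC Genomics Workbench 4.7.1 and deposited RPKM values for 35182 gene models. Reads fitting up to 10 places were shared among them in proportion to unique reads, and no use of strand is stated. *HTR3*, *HTA3*, *HTA13*, *HTA9*, *HTB9* and *H1.1* overlap a neighbouring gene, by 2 to 328 bases, and are less certain for that reason. The study's enrichment tables were not used here.

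Models were summed per locus, and log2(RPKM + 1) was compared with limma 3.58.1 in R 4.3.3 for loci with a mean of at least 1 RPKM. A fold change on this scale understates that of low genes. Adjustment followed Benjamini and Hochberg, taking in every locus tested. Alternatives were quantile normalization, limma with trend, a pseudocount of 0.1, other filters, the most abundant gene model, a replicate block, leaving out each library, removal of a lowess trend (span 0.3) of log2 values against exon length, and Baggerley's test on RPKM proportions. A block with crossed numbers, and length correction without *stk* replicate 1, were chosen after seeing the data. With 1 *stk* library left, it is assumed to vary as the wild-type pair does. The procedure was tested on simulated data.

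Library sizes were recovered from RPKM steps (98.8% to 98.9% of low values whole within 0.1 read) and are estimates. Exon lengths, promoters and codons come from the RefSeq annotation of TAIR10.1, whose coordinates are those of TAIR10. Shared stretches were found with bwa 0.7.19.

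Loci with values in the text are the 3 most abundant of each class, all variants and H1 genes, members at an unadjusted p of at most 0.05 and the 3 largest rises and falls. Other members were named once their values were known. The members and lists were chosen with earlier results of these data known.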

Additional observations from a re-analysis of the deposited data

How the results depend on the processing

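The number of histone loci at an unadjusted p of at most 0.05 was 4, all of them higher in *stk*. It was 8 (7 higher, 1 lower) with quantile normalization, where 12.8% of all loci were called in either direction and 7.28% of all loci were called as higher. It was 10 (7 lower) with length correction, where 13.3% of all loci were called. With length correction without *stk* replicate 1 the median log2 fold change of the members was -0.14, against -0.003 for all loci. Without a filter on low values 2 were higher and 1 lower (8.45% of all loci in either direction), with 1 by the study's criteria. Baggerley's test gave 0 on every count, where 0.163% of all loci passed the unadjusted threshold. By the study's criteria, which 3 loci met, 0 did so with length correction, with or without *stk* replicate 1. Leaving out each library in turn gave 0 to 12 loci at an adjusted p under 0.05, 0 to 16 at an unadjusted p of at most 0.05 (0 to 16 higher, 0 to 2 lower) and 0 to 9 by the study's criteria. The log2 ratio of H4 totals then ran from 0.089 to 1.04.

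With length correction, and with it without *stk* replicate 1, the log2 ratio was 0.10 and -0.023 for H4 totals, -0.22 and -0.23 for replication-dependent totals, -0.030 and -0.069 for replication-dependent over replacement, and -0.20 and -0.25 for H3.1 over H3.3. Limma with trend, the pseudocount of 0.1 and the stricter filter do not enter the class totals and their ratios and cannot move them. The most abundant gene model left the totals and ratios within the spread between replicates. With each of these settings the counts of loci stayed within 1.5 times.

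Same-numbered libraries did not deviate together (correlation -0.13). This value cannot settle whether the numbers pair the samples, because the opposite exon-length trends of the 2 replicate 1 libraries enter it. The labels do not state a pairing. The replicate block gave 2 loci at an unadjusted p of at most 0.05, both higher, where 10.9% of all loci were called and 5.57% were called as higher. A replicate block with crossed numbers, chosen after seeing the data, gave 7 loci at an adjusted p under 0.05 (4.84% of all loci), 10 at an unadjusted p of at most 0.05, all higher (7.75% of all loci), and 6 by the study's criteria.

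Of 602 fold changes of single members over the alternatives, 33 moved by more than the spread between replicates, 15 with length correction and 18 with it without *stk* replicate 1. Limma with trend, the filters and the replicate blocks cannot move a fold change, so the total of 602 overstates the stability. Of the 43 members, 17 changed sign with length correction, 14 without *stk* replicate 1 and 18 with both changes. Leaving out any other library changed the sign of 9 to 11. The 4 members at an unadjusted p of at most 0.05 by limma kept their direction in every alternative. They were picked from these same libraries and had both *stk* libraries above both wild-type libraries, so leaving out a library could not reverse them. Their size was not kept: the log2 fold change of *HTB6* went from 1.02 to 0.14 with length correction and to 0.08 with both changes. Low loci are limited by depth: 3 reads at 1 kb of exon amount to 0.18 RPKM in wild-type replicate 1 and 0.09 RPKM in *stk* replicate 2.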
